A study of Mus musculus with 4 samples.

Results

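The genes described are 38 interferon-stimulated genes of the mouse macrophage, taken by symbol from a table of 34745 Ensembl gene IDs, in which all 38 were found. They are the genes of ISG15 conjugation, the Mx proteins, the interferon-inducible PARP and TRIM genes and other effectors that lie outside the Ifit, Oas, Gbp, Irg, Schlafen and p200 families. RNA was sequenced from primary bone marrow-derived macrophages of C57BL/6 mice in 4 libraries. In 2 libraries the cells had been transfected with Acly-E14 siRNA and given lipopolysaccharide (LPS), and in the other 2 they had been transfected with control siRNA and given LPS. All 4 libraries therefore carry both a transfection and LPS, and no library without LPS was analysed here. The product of Acly, ATP citrate lyase, turns cytosolic citrate into acetyl-CoA, and the labels do not spell out E14. The labels give no dose, time, age or sex, and leave unsaid whether a group's libraries stem from different animals or cultures.

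Interferon-stimulated genes are switched on when interferon binds its receptor on the cell surface, and the kinases JAK1 and TYK2 then pass the signal on. It ends in the factor ISGF3, of which IRF9 is a part and which binds a short DNA element called the interferon-stimulated response element (ISRE) near the start of its target genes. In macrophages, LPS is known to start this circuit by way of interferon-beta. The products act against viruses at several steps, tag proteins with the ubiquitin-like modifier ISG15 or with ADP-ribose, and feed back on the signal.

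The promoters of 5 members are shown because they span the outcomes found here. Isg15 and Trim21 were lower and have exact ISRE core matches, as has Ifitm3, which was higher. Samd9l was lower and Trim25 higher, both without an exact match. Each stretch runs 5′ to 3′ in the direction of transcription, from 120 bases before the RefSeq start to 30 bases after it (build GRCm38.p6), and capitals mark the ISRE core searched on both strands, which is GAAA, then 2 bases of any kind, then GAAA.
Isg15, chr4:156200789-156200938, minus strand: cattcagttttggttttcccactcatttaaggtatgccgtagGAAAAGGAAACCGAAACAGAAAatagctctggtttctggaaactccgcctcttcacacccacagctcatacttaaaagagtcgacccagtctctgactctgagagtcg
Trim21, chr7:102565453-102565602, minus strand: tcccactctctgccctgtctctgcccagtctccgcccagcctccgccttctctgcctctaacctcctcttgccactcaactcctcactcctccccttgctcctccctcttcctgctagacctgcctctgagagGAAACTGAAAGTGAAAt
Samd9l, chr6:3399542-3399691, minus strand: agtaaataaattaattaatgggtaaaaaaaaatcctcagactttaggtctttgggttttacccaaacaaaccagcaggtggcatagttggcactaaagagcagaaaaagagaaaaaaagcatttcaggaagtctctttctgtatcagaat
Ifitm3, chr7:141010715-141010864, minus strand: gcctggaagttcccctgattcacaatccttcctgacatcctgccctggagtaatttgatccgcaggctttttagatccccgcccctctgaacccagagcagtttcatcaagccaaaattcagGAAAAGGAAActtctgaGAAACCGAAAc
Trim25, chr11:88999283-88999432, plus strand: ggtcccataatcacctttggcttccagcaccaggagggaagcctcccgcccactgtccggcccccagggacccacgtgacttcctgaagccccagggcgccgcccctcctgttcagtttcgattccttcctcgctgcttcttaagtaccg

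The RefSeq table held a window from 250 bases before the start to 50 after it for 28 of the 38 members. The ISRE core occurred in a window of 10 of these 28 (35.7%), against 413 of 9958 tested genes with a window (4.15%) and 3.44% of all 32851 windows of this length. Isg15 had 3 overlapping matches, which begin 78, 72 and 66 bases before the start. Trim21 had 2 overlapping matches that begin 13 and 19 bases after the start, and those of Ifitm3 begin 2 and 19 bases after it. Bst2 and Ddx60 also had 2, and Parp11, Phf11b, Shisa5, Trim30a and Trim30d had 1 in at least 1 window. In the comparison described next, 7 of the 10 members with the ISRE core were lower and 1 was higher, with a median log2 change of -0.29. Of the 18 without it, 12 were lower and 1 was higher, with a median log2 change of -0.28. Over all 13108 tested genes 15.9% were lower and 17.3% higher. Among those at a mean of at least 100 CPM (counts scaled to library size) 40.7% were lower and 16.4% higher. The ISRE matches describe letters in a window and not binding. Stretches close to the core but not identical were not searched, so a window without a match may still hold an ISRE. The split is therefore by exact letters and not by presence of an ISRE.

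Most of these effector genes were lower with Acly-E14 siRNA, by modest amounts, and a few stood well outside that range. Of the 38 members, 25 fell, 2 rose and 11 were not called, where a call is an adjusted p under 0.05 over all 13108 genes tested with edgeR. The falls in Trim21, which encodes a cytosolic antibody receptor, and Tor3a, a torsin-type ATPase of the endoplasmic reticulum, were the largest of the members. Trim25, which encodes a ubiquitin ligase for the RNA sensor RIG-I, and Ifitm3, which encodes a block to virus fusion, were the 2 that rose. Of the 25 falls, 22 were within 1.5-fold of the control level. Those of Trim21, Tor3a, Samd9l and Ddx60 went past -0.5 on the log2 scale, 4 of 38 members, as did the falls of 6.64% of all tested genes.

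The members' count has to be read against the whole table. Over all tested genes, 33.2% were called, 15.9% lower and 17.3% higher, while 65.8% of the members were lower. The log2 change was below 0 in 33 members and in 49.8% of all genes. Both Acly-E14 siRNA libraries lay below both controls in 31 members, against 35.3% of all genes, and above both in 4 members, against 35.3% of all genes. The members are far better counted than most genes, and low counts limit calls. Among the 1826 genes at a mean of at least 100 CPM (counts scaled to library size), 40.7% were lower and 16.4% higher, and of the 37 members at that level 67.6% were lower. The median log2 change was -0.33 in those 37 members and -0.14 in the 1826 genes, and the quartiles of the 1826 genes were -0.35 and 0.08. Both Acly-E14 siRNA libraries lay below both controls in 31 of the 37 members and in 58.2% of the 1826 genes. When libraries were re-centred on those 1826 genes, an alternative chosen after seeing the data, 18 members were lower and 3 higher, with a median log2 change of -0.16. Over all 13108 tested genes, 1180 were then lower and 3191 higher. That centring moved the median of all tested genes to 0.15, against 0.00 with the scaling used throughout. It shifts all genes by nearly the same amount, so the members' distance from that median was fixed in advance. Of all genes called, 52.0% were higher with the scaling used throughout, 65.7% with library totals alone and 73.0% with that centring. On leaving out any library, fewer members and fewer genes over the whole table were called. The member median log2 change was smallest in size without control siRNA library 1, at -0.26, against -0.31 with all libraries. It was -0.34, -0.28 and -0.31 without Acly-E14 siRNA library 1, Acly-E14 siRNA library 2 and control siRNA library 2. With limma on log2(FPKM + 1), where Acly-E14 siRNA has 1 library, the member median was also below 0. The DESeq2 Wald test called 28 members lower and 3 higher. Over all 13108 tested genes that test called 2278 lower and 2337 higher.

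**Figure D1:**
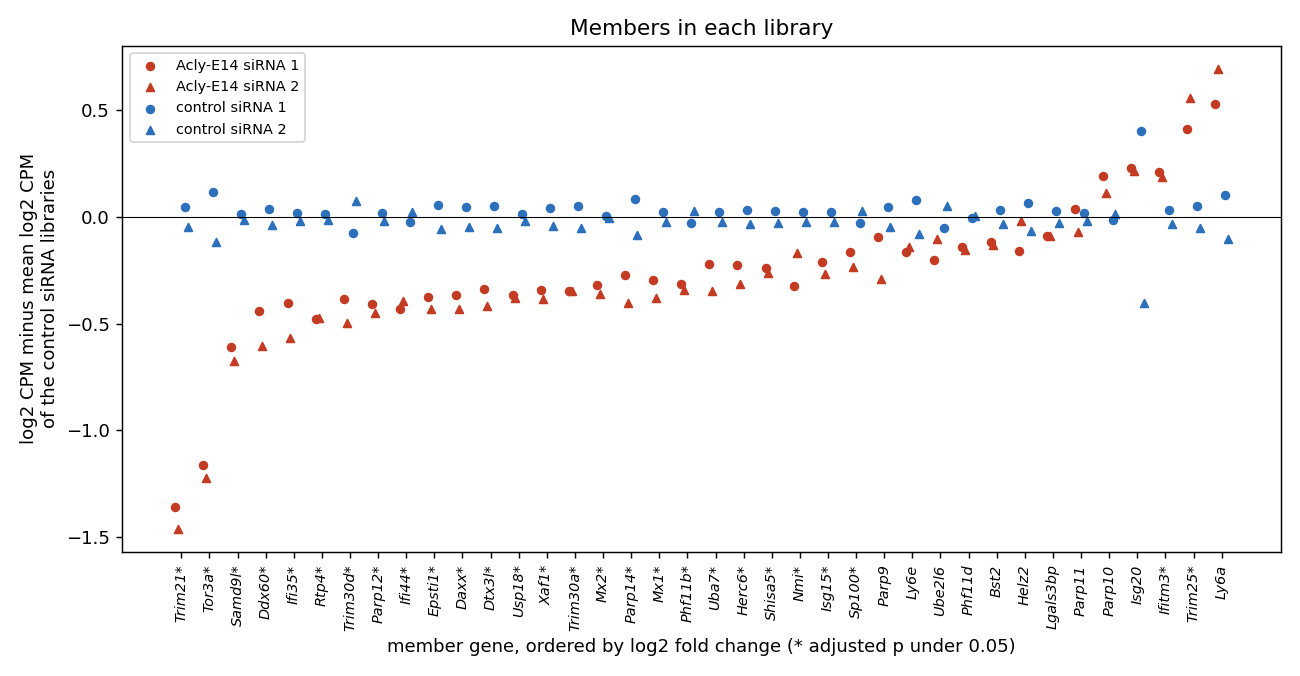
Each member in each library, as log2 CPM minus the mean log2 CPM of the control siRNA libraries. Red marks are Acly-E14 siRNA libraries and blue marks control siRNA libraries, circles being replicate 1 and triangles replicate 2, and a star marks the 27 called genes. Trim21 and Tor3a lie apart at the low end, Trim25 and the sparsely counted Ly6a at the high end, and for Isg20 the control siRNA libraries are themselves far apart.

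**Figure D2:**
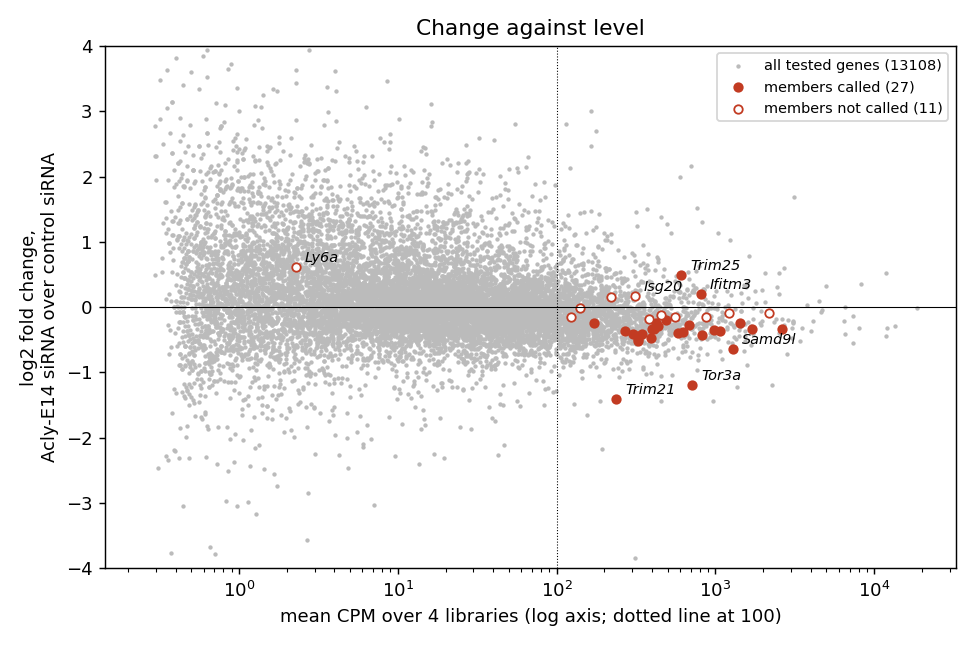
Log2 fold change, Acly-E14 siRNA over control siRNA, against mean CPM on a log axis for the 13108 tested genes (grey), the 27 called members (filled red) and the 11 not called (open red). A dotted line marks 100 CPM, above which all members but Ly6a lie, and 30 genes fall outside the plotted range of log2 changes.

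The libraries held 21323438 and 21086129 counts with Acly-E14 siRNA, and 21023197 and 21837806 with control siRNA. The members took 2.36% and 2.33% of the counts in Acly-E14 siRNA libraries, against 2.73% and 2.65% in control siRNA libraries. Acly itself was at 118 and 126 CPM in Acly-E14 siRNA libraries and at 158 and 154 CPM in control siRNA libraries, a log2 change of -0.35 (SE 0.060, edgeR adjusted p = 0.0086). That call was lost without control siRNA library 1 (adjusted p = 0.058) and with limma on log2(FPKM + 1), where Acly-E14 siRNA has 1 library (adjusted p = 0.0503). Of 19 tested macrophage markers, 8 were lower and 6 higher, and their summed level was 11134 and 11619 CPM with Acly-E14 siRNA against 11870 and 11025 CPM with control siRNA. Lyz2 was not called, at 4396 and 4802 CPM with Acly-E14 siRNA against 4929 and 4548 CPM with control siRNA, while Cd68 was lower, at 1186 and 1157 CPM with Acly-E14 siRNA against 2026 and 1725 CPM with control siRNA. The marker Cx3cr1 had 0 and 1 counts with Acly-E14 siRNA and 2 and 0 with control siRNA. All 15 fibroblast and stroma markers had positive changes, 14 of them called, and they summed to 3212 and 3973 CPM in Acly-E14 siRNA libraries, against 909 and 1381 CPM in control siRNA libraries. The endothelial list rested on Kdr, at 103 and 97.6 CPM with Acly-E14 siRNA against 277 and 269 CPM with control siRNA, while Pecam1 had 4 to 7 counts a library. Erythroid markers summed to 0 and 3 counts with Acly-E14 siRNA against 81 and 94 counts with control siRNA. The plasmacytoid dendritic cell list rested on Tcf4, which is not particular to those cells, at 97.1 and 84.8 CPM with Acly-E14 siRNA against 124 and 112 CPM with control siRNA. Of 3 tested neutrophil markers 2 were higher and 1 lower, and the list rested on Csf3r, at 131 and 128 CPM with Acly-E14 siRNA against 84.5 and 94.6 CPM with control siRNA, while Ly6g had 0 to 2 counts a library. Cd3e (T cells), Ncr1 (NK cells) and Siglech (plasmacytoid dendritic cells) had 0 counts in every library, but other genes of these lists had more. The T cell list rested on Lck, with 422 and 493 counts with Acly-E14 siRNA against 366 and 431 with control siRNA. The NK cell list rested on Klrk1 (550 and 488 against 648 and 509), and the B cell list on Pax5 (49 and 101 against 72 and 45). Lck, Klrk1 and Pax5 were not called. The part of these markers in the members' changes was not tested. In bulk RNA, fewer cells of a type and less RNA per cell cannot be told apart.

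Of the 5 genes of ISG15 conjugation and removal, 4 fell and 1 was not called. These 5 were at 100 CPM or more, where 40.7% of all genes were lower. ISG15 is a ubiquitin-like protein that UBA7 activates, UBE2L6 carries and, in mice, HERC6 attaches to targets, while USP18 removes it and also restrains the interferon receptor. Isg15 was at 1343 and 1292 CPM in Acly-E14 siRNA libraries and at 1582 and 1531 CPM in control siRNA libraries. Both Acly-E14 siRNA libraries lay below both controls, as in 58.2% of all genes at 100 CPM or more. The log2 change was -0.24 (SE 0.056, edgeR adjusted p = 0.023). Per length it was the most abundant member in controls, with 1822 FPKM in Acly-E14 siRNA library 1 and 1995 ± 15.2 FPKM in control siRNA libraries (SD, n = 2).

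Usp18 had the largest fitted fall of the ISG15 genes, a difference that was not tested. It was at 942 and 932 CPM in Acly-E14 siRNA libraries and at 1228 and 1200 CPM in control siRNA libraries, a log2 change of -0.37 (SE 0.052, edgeR adjusted p = 0.0047). For each count of Isg15 there were 0.701 and 0.722 counts of Usp18 with Acly-E14 siRNA, against 0.776 and 0.784 with control siRNA. These ratios, which do not depend on how libraries are scaled, were lower in both Acly-E14 siRNA libraries. For such ratios an exact permutation test, two-sided, has 0.333 as its smallest possible p with 2 libraries a group. Uba7 was at 412 and 377 CPM in Acly-E14 siRNA libraries, against 488 and 472 CPM in control siRNA libraries (log2 -0.28, edgeR adjusted p = 0.020). Herc6, at 637 and 599 CPM with Acly-E14 siRNA against 760 and 728 CPM with control siRNA, changed by -0.27 (edgeR adjusted p = 0.019). Ube2l6 was not called, at 113 and 120 CPM with Acly-E14 siRNA against 125 and 134 CPM with control siRNA (log2 -0.15, SE 0.066, edgeR adjusted p = 0.13). Its groups did not overlap either, which was common at this level. Herc6 shares 1269 exon bases with Gm45193 and Uba7 shares 233 with Gm20661, so reads there cannot be told apart.

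Within the ISG15 genes, the Usp18 call alone held without each library in turn. For Isg15 the call ended on leaving out any 1 of the 4 libraries (edgeR adjusted p between 0.0611 and 0.118). Those of Uba7 and Herc6 were lost without Acly-E14 siRNA library 2 (0.0937 and 0.0972), control siRNA library 1 (0.109 and 0.107) or control siRNA library 2 (0.0651 and 0.0558). Centred on well-counted genes, Isg15, Uba7 and Herc6 had log2 changes of -0.10, -0.14 and -0.13 and were not called.

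Of 11 antiviral effectors, 5 fell, 1 rose and 5 were not called. Among the 10 of them at 100 CPM or more, 5 were lower and 1 higher. Of all genes at that level, 40.7% were lower and 16.4% higher. Samd9l, which encodes a SAM-domain protein that restricts poxviruses, was at 1028 and 983 CPM in Acly-E14 siRNA libraries and at 1585 and 1557 CPM in control siRNA libraries. Its log2 change of -0.64 (SE 0.055, edgeR adjusted p = 0.0015) put the Acly-E14 siRNA level 36.0% below the control level. Ddx60, which encodes a helicase linked to RIG-I signalling, was at 281 and 251 CPM with Acly-E14 siRNA against 392 and 372 CPM with control siRNA (log2 -0.52, edgeR adjusted p = 0.0046). Rtp4, a receptor transporter gene with antiviral activity, was at 328 and 329 CPM with Acly-E14 siRNA against 461 and 453 CPM with control siRNA (log2 -0.48, edgeR adjusted p = 0.0023). In these genes both Acly-E14 siRNA libraries lay below both controls, as in 58.2% of all genes at 100 CPM or more. Rtp4 shares 296 exon bases with Gm45338 on the same strand, so its count is less certain.

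Mx1 and Mx2 encode dynamin-like GTPases of a family that blocks viral replication. In C57BL/6 mice Mx1 is known to carry a deletion that leaves the protein inactive, and RNA values do not show whether the Mx2 protein is active. Both genes lie on chromosome 16, 72.4 kb apart. Mx1 was at 1543 and 1454 CPM in Acly-E14 siRNA libraries and at 1921 and 1861 CPM in control siRNA libraries (log2 -0.34, SE 0.059, edgeR adjusted p = 0.0098). Mx2 was at 368 and 357 CPM with Acly-E14 siRNA against 460 and 457 CPM with control siRNA (log2 -0.34, SE 0.051, edgeR adjusted p = 0.0059). The number of Mx1 counts per Mx2 count was 4.20 and 4.08 with Acly-E14 siRNA and 4.18 and 4.08 with control siRNA, so the groups overlapped in this ratio. The Mx1 call was lost without Acly-E14 siRNA library 2 (edgeR adjusted p = 0.0571) or control siRNA library 1 (0.0635).

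Ifitm3 went against the majority. It was at 869 and 856 CPM in Acly-E14 siRNA libraries and at 770 and 734 CPM in control siRNA libraries, a log2 change of 0.20 (SE 0.054, edgeR adjusted p = 0.037). Per length it was the second most abundant member in controls, with 1315 FPKM in Acly-E14 siRNA library 1 and 1074 ± 19.5 FPKM in control siRNA libraries (SD, n = 2). The fibroblast and stroma markers given above were higher in the same libraries, and their part in the Ifitm3 value was not tested. Leaving out any 1 of the 4 libraries ended the Ifitm3 call (edgeR adjusted p between 0.103 and 0.175), as did omitting a filter on low counts (0.055).

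Other surface and nuclease genes were not called. Bst2, which encodes the tethering protein tetherin, was at 436 and 432 CPM with Acly-E14 siRNA against 483 and 462 CPM with control siRNA (log2 -0.12, edgeR adjusted p = 0.12). DESeq2 called it lower (adjusted p = 0.038). Ly6e, a GPI-anchored protein gene, was at 815 and 828 CPM with Acly-E14 siRNA against 966 and 864 CPM with control siRNA (log2 -0.16, edgeR adjusted p = 0.13). Helz2, a helicase coactivator gene, was at 1120 and 1236 CPM with Acly-E14 siRNA against 1313 and 1196 CPM with control siRNA and the groups overlapped (log2 -0.09, edgeR adjusted p = 0.41). The Bst2 change was 0.02 when libraries were centred on well-counted genes, and the Helz2 change was 0.05 there and 0.00 with library totals alone. Ly6a, the Sca-1 surface antigen gene, was barely present, with 57 and 64 counts in Acly-E14 siRNA libraries and 39 and 36 in control siRNA libraries (log2 0.61, SE 0.24, edgeR adjusted p = 0.10). Of its transcript stretches of 50 bases, 19.0% also occur in another gene, mainly Ly6c1.

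Isg20, an RNA exonuclease gene, had control libraries that lay far apart. It was at 331 and 328 CPM in Acly-E14 siRNA libraries and at 373 and 213 CPM in control siRNA libraries (log2 0.17, SE 0.24, edgeR adjusted p = 0.62). Without control siRNA library 1 the gene was called higher (log2 0.62, adjusted p = 0.018), and without control siRNA library 2 its change was -0.18 (adjusted p = 0.13).

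Among the ADP-ribosylation genes, 3 of 6 fell and none rose past the threshold, which Parp10 missed at an edgeR adjusted p of 0.083. All 6 were at 100 CPM or more, where 40.7% of all genes were lower and 16.4% higher. PARP10, PARP11, PARP12 and PARP14 attach single ADP-ribose units to proteins, while PARP9 works in complex with the ubiquitin ligase DTX3L. Parp14 had the most CPM of all members, 2433 and 2220 in Acly-E14 siRNA libraries against 3107 and 2771 in control siRNA libraries (log2 -0.34, SE 0.082, edgeR adjusted p = 0.026). Parp12, a zinc-finger member that curbs translation of viral RNA, was at 713 and 693 CPM with Acly-E14 siRNA against 959 and 934 CPM with control siRNA (log2 -0.43, SE 0.053, edgeR adjusted p = 0.0034). In either gene both Acly-E14 siRNA libraries lay below both controls, as in 58.2% of all genes at 100 CPM or more.

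Parp9 and Dtx3l are transcribed head to head from chromosome 16 and their 5′ exons overlap by 458 bases on opposite strands. Dtx3l was at 557 and 527 CPM in Acly-E14 siRNA libraries and at 729 and 679 CPM in control siRNA libraries (log2 -0.38, SE 0.062, edgeR adjusted p = 0.0080). Parp9 was at 379 and 330 CPM with Acly-E14 siRNA against 417 and 391 CPM with control siRNA and was not called (log2 -0.19, SE 0.080, edgeR adjusted p = 0.12). It was called lower by DESeq2 (adjusted p = 0.0497) and with a replicate block in edgeR (0.025). Dtx3l gave 1.47 and 1.60 counts per Parp9 count with Acly-E14 siRNA, against 1.75 and 1.74 with control siRNA, with no overlap between the groups. No source used here says whether counting used strand, so reads from the shared bases may be split between the genes.

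Parp10 was at 237 and 224 CPM in Acly-E14 siRNA libraries and at 206 and 209 CPM in control siRNA libraries (log2 0.15, SE 0.056), and it shares 205 exon bases with Plec. It missed the threshold with TMM scaling in edgeR. It was called higher with library totals alone (edgeR adjusted p = 0.018), with centring on well-counted genes (0.0096) and by the DESeq2 Wald test (0.031). Parp11 was at 144 and 134 CPM with Acly-E14 siRNA against 142 and 138 CPM with control siRNA, the groups overlapping (log2 -0.01, SE 0.061, edgeR adjusted p = 0.89), and its sign turned with library totals alone (0.08). Without Acly-E14 siRNA library 2 or control siRNA library 1 the Parp14 call was lost (adjusted p = 0.126 and 0.122), and without control siRNA library 1 that of Dtx3l (0.0552).

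**Figure D3:**
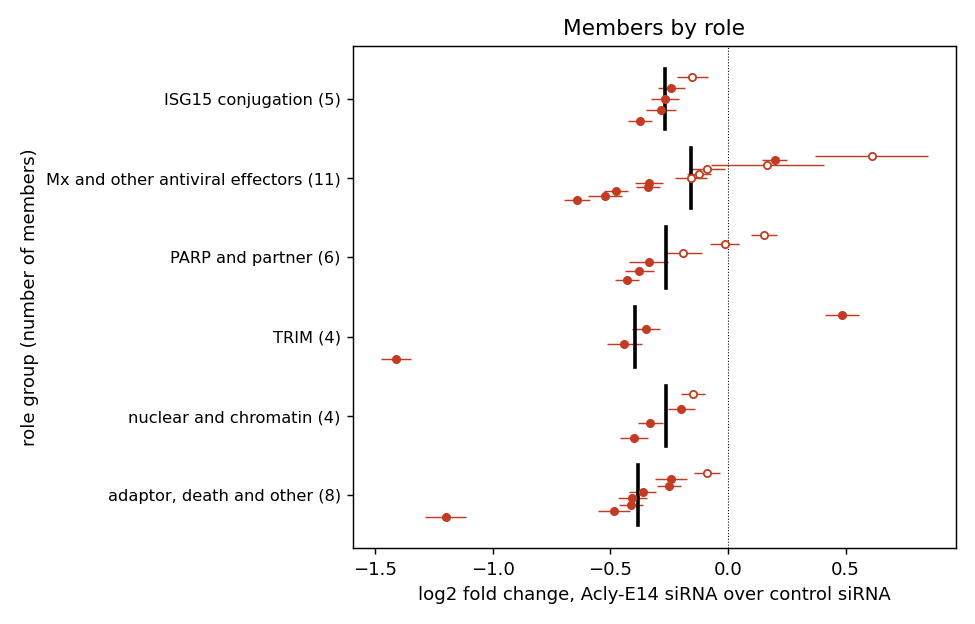
Log2 fold change of every member, Acly-E14 siRNA over control siRNA, grouped by role. Points are genes, filled where called, horizontal bars are standard errors, and black lines are group medians, which lie between -0.39 for the TRIM genes and -0.16 for the antiviral effectors.

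Of the 4 TRIM genes, which encode proteins of the ubiquitin ligase type, 3 fell and 1 rose. At their level of 100 CPM or more, 40.7% of all genes were lower and 16.4% higher. Trim21 (chr7:102557921-102565486, minus strand, mm10) was at 134 and 125 CPM in Acly-E14 siRNA libraries and at 355 and 333 CPM in control siRNA libraries. The log2 change of -1.41 was the largest of the 38 (SE 0.065, edgeR adjusted p = 0.00058) and left 0.376 of the control level. Trim25 (chr11:88999376-89020293, plus strand) was at 672 and 745 CPM in Acly-E14 siRNA libraries and at 524 and 488 CPM in control siRNA libraries. It rose 1.40-fold (log2 0.49, SE 0.072, edgeR adjusted p = 0.0058). Neither gene shares exon bases with a neighbour in the annotation, and both calls held without each library in turn and under every other alternative run. Trim25 gave 5.02 and 5.97 counts per count of Trim21 with Acly-E14 siRNA, against 1.48 and 1.46 with control siRNA. That ratio sets the largest called rise of the members against their largest fall, so it restates those calls.

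Trim21 and Tor3a were rare in size among genes of their level. Of the 1826 genes at a mean of at least 100 CPM, 12 (0.657%) had a log2 change as low as that of Tor3a or lower, Trim21 and Tor3a included. A change as high as that of Trim25 was found in 7.23% of them. Trim30a, which encodes a brake on Toll-like receptor signalling, and its paralogue Trim30d lie 4.82 kb apart on chromosome 7. Trim30a was at 864 and 866 CPM with Acly-E14 siRNA against 1139 and 1064 CPM with control siRNA (log2 -0.35, edgeR adjusted p = 0.0083). Leaving out control siRNA library 1 ended that call (0.0557). Trim30d was at 286 and 264 CPM with Acly-E14 siRNA against 354 and 393 CPM with control siRNA (log2 -0.44, edgeR adjusted p = 0.0085). They share 243 transcript stretches of 50 bases, so a small part of their reads may have been assigned to either.

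**Figure D4:**
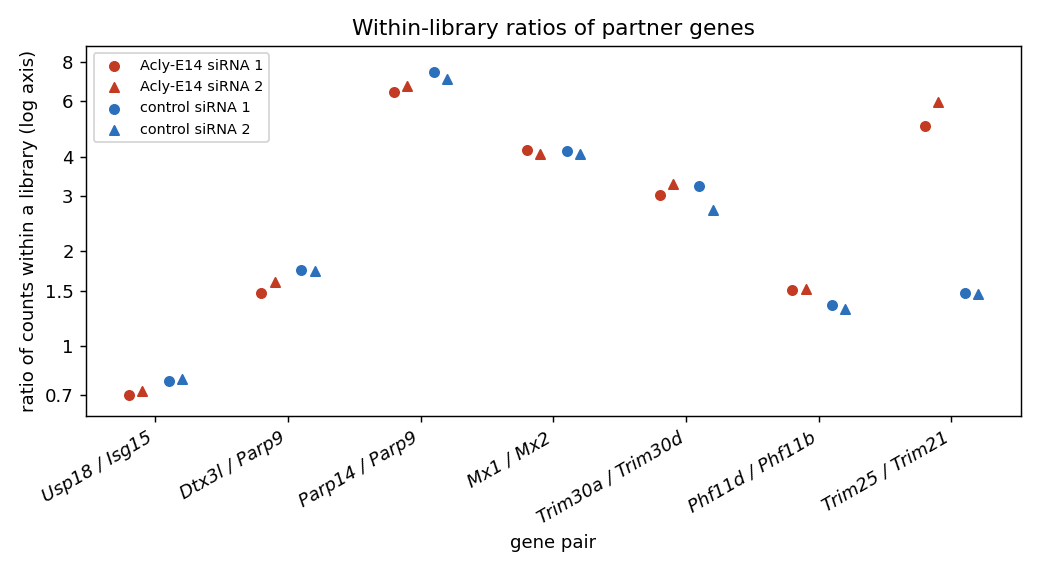
Ratio of counts of gene pairs within each library, on a log axis. The pairs are partner or neighbouring genes, except Trim25 and Trim21, which lie on different chromosomes. Red marks are Acly-E14 siRNA libraries and blue marks control siRNA libraries, circles being replicate 1 and triangles replicate 2. The ratio of Trim25 to Trim21 was 5.02 and 5.97 with Acly-E14 siRNA against 1.48 and 1.46 with control siRNA. It pairs the largest called rise of the members with their largest fall, so its wide separation restates those calls. The ratios of Mx1 to Mx2 and Trim30a to Trim30d overlap.

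Of 4 genes of nuclear bodies and chromatin, 3 fell and 1 was not called, beside 40.7% lower over all genes at their level of 100 CPM or more. Daxx, which encodes a chaperone of histone H3.3 at PML nuclear bodies, was at 510 and 487 CPM in Acly-E14 siRNA libraries and at 680 and 635 CPM in control siRNA libraries (log2 -0.40, SE 0.060, edgeR adjusted p = 0.0060). Sp100, a structural gene of the same bodies, was at 469 and 446 CPM with Acly-E14 siRNA against 515 and 535 CPM with control siRNA (log2 -0.20, edgeR adjusted p = 0.041). Its call ended on leaving out any 1 of the 4 libraries (0.0756 to 0.183). Phf11b and Phf11d encode PHD-finger proteins and lie 6.06 kb apart on chromosome 14. Phf11b was at 354 and 348 CPM with Acly-E14 siRNA against 433 and 450 CPM with control siRNA (log2 -0.33, edgeR adjusted p = 0.0070), and Phf11d at 535 and 529 CPM with Acly-E14 siRNA against 587 and 592 CPM with control siRNA (log2 -0.15, edgeR adjusted p = 0.067). Phf11d was called lower by DESeq2 (adjusted p = 0.0025) and with a replicate block in edgeR (0.030). The counts of Phf11d per count of Phf11b were 1.51 and 1.52 with Acly-E14 siRNA and 1.36 and 1.32 with control siRNA. Phf11b is uncertain, since 47.0% of its transcript stretches of 50 bases also occur in other genes, mainly Phf11a.

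Of the 8 remaining members, 7 fell, beside 40.7% lower over all genes at their level of 100 CPM or more. Tor3a (chr1:156653617-156674356, minus strand, mm10) was at 442 and 424 CPM in Acly-E14 siRNA libraries and at 1075 and 913 CPM in control siRNA libraries. The groups were far apart, with a log2 change of -1.20 (SE 0.088, edgeR adjusted p = 0.0010), or 0.435 of the control level. The binding partners Nmi and Ifi35 encode proteins that temper or relay interferon signals. Ifi35 was at 288 and 257 CPM with Acly-E14 siRNA against 386 and 376 CPM with control siRNA (log2 -0.48, edgeR adjusted p = 0.0052), and it shares 290 exon bases with the antisense gene Gm11626. Nmi was at 149 and 166 CPM with Acly-E14 siRNA against 190 and 184 CPM with control siRNA (log2 -0.24, edgeR adjusted p = 0.042). Without Acly-E14 siRNA library 1, control siRNA library 1 or control siRNA library 2 the Nmi call was lost (0.171, 0.173 and 0.105).

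A pair of genes linked to cell death both fell. Xaf1, which encodes an antagonist of the caspase inhibitor XIAP, was at 238 and 231 CPM in Acly-E14 siRNA libraries and at 311 and 293 CPM in control siRNA libraries (log2 -0.36, edgeR adjusted p = 0.0069). Shisa5, which encodes the endoplasmic reticulum protein scotin, was at 390 and 383 CPM with Acly-E14 siRNA against 469 and 450 CPM with control siRNA (log2 -0.25, edgeR adjusted p = 0.016). The Xaf1 call was lost without control siRNA library 1 (0.0509), and the Shisa5 call without any 1 of the 4 libraries (0.0509 to 0.0996). Ifi44, a cytoplasmic interferon-induced gene, was at 294 and 302 CPM with Acly-E14 siRNA against 390 and 403 CPM with control siRNA (log2 -0.41, edgeR adjusted p = 0.0036). Epsti1, which is induced by interferon in many cells, was at 264 and 254 CPM with Acly-E14 siRNA against 357 and 330 CPM with control siRNA (log2 -0.41, edgeR adjusted p = 0.0063). Lgals3bp, which encodes a secreted glycoprotein that binds galectin-3, was at 2109 and 2115 CPM with Acly-E14 siRNA against 2287 and 2205 CPM with control siRNA and was not called (log2 -0.09, SE 0.056, edgeR adjusted p = 0.27). Its change turned to 0.05 when libraries were centred on well-counted genes.

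Genes that act upstream of the members gave mixed results. Of 23 genes of interferon production and signalling, 8 were lower, 2 higher and 13 not called, beside 15.9% lower and 17.3% higher over all genes, and the median log2 change was -0.19. Among the 16 of them at 100 CPM or more, 6 were lower and 2 higher, beside 40.7% lower and 16.4% higher over all genes at that level. The receptor kinase Tyk2 was at 150 and 139 CPM in Acly-E14 siRNA libraries and at 212 and 215 CPM in control siRNA libraries (log2 -0.56, SE 0.060, edgeR adjusted p = 0.0024). Irf9, the DNA-binding part of ISGF3, was at 122 and 115 CPM with Acly-E14 siRNA against 175 and 169 CPM with control siRNA (log2 -0.54, SE 0.059, edgeR adjusted p = 0.0026). Both calls held under every alternative run.

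Calls elsewhere in the signalling list were less secure. Stat2, which encodes another part of ISGF3, was not called, at 878 and 819 CPM with Acly-E14 siRNA against 1023 and 951 CPM with control siRNA (log2 -0.22, edgeR adjusted p = 0.0504). Jak1 and Irf1 had log2 changes of -0.25 and -0.29, and Tbk1 and Irf8 of -0.41 each, and these 4 calls were lost without at least 1 library, in each case control siRNA library 1 (0.103, 0.161, 0.0506 and 0.0639). The interferon-beta gene Ifnb1 was at 3.38 and 2.65 CPM with Acly-E14 siRNA against 5.36 and 4.67 CPM with control siRNA (log2 -0.73, edgeR adjusted p = 0.043), and its call was lost without any 1 library (0.0708 to 0.212). Ifnar1, a chain of the interferon receptor, and Socs3, an inhibitor of cytokine signalling, were higher (log2 0.23 and 0.28). The Ifnar1 call was lost without any 1 library (0.0673 to 0.141), and the Socs3 call without control siRNA library 1 (0.0737), control siRNA library 2 (0.0509) or Acly-E14 siRNA library 2 (0.0525). Irf7, a factor that amplifies the interferon response, was at 944 and 854 CPM with Acly-E14 siRNA against 924 and 900 CPM with control siRNA, the groups overlapping (log2 -0.02, edgeR adjusted p = 0.83).

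Other interferon-inducible families gave the following counts in the same fit, and differences between the families and the 38 members were not tested. Calls were 4 lower and 0 higher among 6 Ifit genes (median log2 -0.35), 4 lower and 1 higher among 8 Oas genes (-0.27), and 7 lower and 0 higher among 11 p200 genes (-0.23). They were 4 lower and 1 higher among 7 Schlafen genes (-0.29), 3 lower and 0 higher among 7 Irg genes (-0.16), and 2 lower and 2 higher among 11 Gbp genes (0.08). Over all tested genes 15.9% were lower and 17.3% higher. At 100 CPM or more, 40.7% of all genes were lower and 16.4% higher. At that level 4 of 5 Ifit, 4 of 6 Oas, 6 of 10 p200 and 3 of 7 Irg genes were lower and 0 higher. Of 6 Schlafen genes there, 4 were lower and 1 higher, and of 7 Gbp genes 2 were lower and 1 higher.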

How the data were processed

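RNA-seq of 4 libraries was used, 2 per group. The deposited table gives the authors' raw counts per gene, and FPKM values scaled per gene length and depth by the authors, per the file headers. HISAT2, StringTie 1.3.0, edgeR and the build mm10 are named in the submitters' processing notes; the sources used here do not name the counter, strand setting or annotation. The name of 1 FPKM column matched no single sample, and it was not used, which leaves FPKM for 1 Acly-E14 siRNA library.

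Of 34745 Ensembl IDs, 34267 were given a symbol, and the others held 0.154% to 0.187% of the counts. Coordinates and exon overlaps are from GENCODE M21 (mm10), promoters from RefSeq (GRCm38.p6). Genes were kept by filterByExpr (minimum count 10), scaled with trimmed-mean (TMM) factors and tested with the quasi-likelihood F test of edgeR 4.0.16 (R 4.3.3) without covariates, with Benjamini-Hochberg adjustment over 13108 genes. CPM are TMM-scaled, and log2 changes are Acly-E14 siRNA over control siRNA with SE implied by the F statistic. Alternatives were a replicate block, leaving out each library (a lone library is then assumed to vary like the others), DESeq2 size factors, the DESeq2 1.42.0 Wald test, library totals, no filter, limma 3.58.1 on log2(FPKM + 1) and log2(FPKM + 0.1) with the 1 Acly-E14 siRNA library against 2 controls, and an adjusted p under 0.1. Centring on genes at 100 CPM or more was added after seeing the data.

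The members, gene lists and their roles were chosen with earlier results of these data known, and the rule for named genes was all 38 members, Acly and the genes of the signalling list, with up to 2 of the best-counted genes of any other list. Markers at or near 0 (Cd3e, Ncr1, Siglech, Cx3cr1, Pecam1, Ly6g) are named besides, after their values were seen. No list was tested as a set. A gene of the signalling list is counted there but not reported here by itself. Since separate cultures or animals are not stated, the p-values reflect spread among these 4 samples alone, and that spread may be technical.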

Additional observations from a re-analysis of the deposited data

How the results depend on the processing

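Of the 27 called members, 11 kept the call under all 12 alternatives (Usp18, Rtp4, Ddx60, Samd9l, Parp12, Trim21, Trim25, Daxx, Ifi35, Ifi44 and Tor3a) and 16 lost it under at least 1. Mx2, Trim30d, Phf11b and Epsti1 lost it with limma on FPKM alone. Leaving out 1 library gave 2094 to 3215 genes called against 4351 with all, 14 to 21 members lower, 1 to 2 higher, a member median of -0.34 to -0.26, 2 to 6 signalling genes lower and 0 to 1 higher, and an Acly change of -0.40 to -0.30. Log2 changes spanned 0 for Parp11 (-0.066 to 0.039), Isg20 (-0.18 to 0.62), Irf7 (-0.093 to 0.050), Ikbke (-0.097 to 0.051) and Ifngr1 (-0.064 to 0.091).

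With library totals the member median was -0.22, and Helz2 (0.0021), Parp11 (0.078), Lgals3bp (0.0027), Irf7 (0.070), Ikbke (0.070), Ticam1 (0.064) and Ptpn2 (0.039) turned positive. With limma on FPKM, where 1 Acly-E14 siRNA library is assumed to vary like the controls, log2(FPKM + 1) and log2(FPKM + 0.1) gave 2045 and 1680 genes called, 12 and 10 members lower, 3 signalling genes lower and 1 higher under each, member medians of -0.20 each, and Acly at -0.30 and -0.32 (limma adjusted p = 0.0503 and 0.0561). Positive there were Parp11 (0.11 and 0.12), Irf7 (0.13 each), Irf3 (0.021 and 0.023), Ikbke (0.086 and 0.091), Ticam1 (0.055 and 0.058), Ptpn2 (0.053 and 0.056) and Ptpn11 (0.0023 and 0.0026). Without the low-count filter 1 member was higher, beside 1687 of all 18730 genes tested there. Centred on genes at 100 CPM or more, chosen after seeing the data, 4 signalling genes were lower and 4 higher, the member median was -0.16, and Bst2 (0.020), Helz2 (0.054), Parp11 (0.13), Lgals3bp (0.055), Irf7 (0.12), Irf3 (0.027), Ikbke (0.12), Ticam1 (0.12), Ptpn2 (0.091) and Ptpn11 (0.051) turned positive. Of all calls, 52.0% were higher with TMM, 65.7% with library totals, 64.9% and 60.2% with limma and 73.0% with that centring. The cause of these changes was not tested beyond the scaling itself.

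Same-numbered libraries deviated together weakly (r = 0.144 over 13108 genes), and 2 pairs do not establish a pairing. A replicate block gave 4896 genes called, with 27 members lower and 2 higher. Counts of 36 to 64 limit Ly6a, and counts of 58 to 108 limit Ifnb1.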
